A study of Mus musculus with 12 samples.

Results

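The 7 genes described here, Sncg, L1cam, Ppp1r1c, Myh7b, Cryba1, Pcolce and Ms4a4d, were chosen by their large difference in signal between 48 and 72 h of Neurog1 induction in mouse embryonic stem (ES) cells. They are 7 of 18193 genes with a probe set annotated to 1 symbol, and all 7 were among the 11806 genes bright enough to be tested. Neurog1 is a proneural transcription factor of the basic helix-loop-helix type. The cells were of genotype 129P2/OlaHsd (E14, Ainv15) and carried Neurog1 under a tetracycline-sensitive expression system, in all groups alike. Per the labels' protocols, the medium held serum, leukaemia inhibitory factor, puromycin and G418, and induced cells received doxycycline at 1 ug/ml for 24, 48 or 72 h. Control cells were uninduced and kept in maintenance culture (0 h). There were 4 groups of 3 Affymetrix arrays, named biological replicates in the labels. Since uninduced cells were sampled at 0 h only, effects of Neurog1, of the drug and of days in culture cannot be told apart.

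As background, a stem cell driven by a proneural factor first switches on other regulatory genes, leaves the pluripotent state and then makes the structural proteins of a neuron. Sncg encodes gamma-synuclein, a small presynaptic and axonal protein of peripheral and sensory neurons. L1cam encodes an immunoglobulin-family adhesion molecule of growing axons, and Ppp1r1c a small inhibitor of protein phosphatase 1. Myh7b encodes a sarcomeric type of myosin heavy chain, Cryba1 a beta-crystallin of the lens, Pcolce an extracellular enhancer of procollagen processing, and Ms4a4d a membrane-spanning protein of the MS4A family, which is known mostly from blood cells.

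Values are MAS5 signals (probe set intensity on a linear scale), and differences are log2(signal + 16) differences with their standard error (SE) from limma, n = 3 arrays per group. Because the pseudocount of 16 compresses low signals, such differences understate the change of dim genes. The difference between 72 and 48 h chose the members and is described without a test. Differences of 48 h from earlier times, and of 72 h from uninduced cells, reuse the same arrays and are described in the same way. The first day, 24 h against uninduced cells, shares no array with the 72 h minus 48 h difference. It was tested, with the spread estimated over all 12 arrays. As the members were chosen with earlier results of these data known, this test is not fully independent of the choice.

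In the order of the 72 h minus 48 h difference, Ppp1r1c, Sncg and L1cam stood at ranks 3, 4 and 6 from the top of the 11806 genes. From the bottom, Myh7b, Pcolce, Ms4a4d and Cryba1 stood at ranks 4, 5, 7 and 10. Nefm and Mapt, at ranks 2 and 5 from the top, were not members. Nor were Gal, Mfap4, Id1 and Zap70, at ranks 3, 6, 8 and 9 from the bottom. The last members were L1cam (2.55 ± 0.25) and Cryba1 (-1.79 ± 0.25), and the genes next in order beyond them were Nefl (2.52 ± 0.29) and Wnt8a (-1.77 ± 0.28). The groups of 48 and 72 h did not overlap for any of the 7, a property shared by 24.1% of all genes tested.

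On the arrays, Neurog1 signals were 4.53 to 18.7 in uninduced cells and 465 to 1152 after induction. Markers fit the label of ES cells at 0 h, where 10 of 10 ES cell genes exceeded the array median on each array. Their summed signal went from 44865 to 50943 in uninduced cells to 5053 to 5824 at 72 h, while that of 10 neuronal genes went from 3949.8 to 4398 to 25892 to 28715. Array medians ran from 19.5 to 32.8. One array stood apart: across genes, replicate 1 of 24 h reached only r = 0.787 and r = 0.812 with the other arrays of its group, against at least r = 0.961 for all other pairs within a group. Over all genes tested, limma called 1335 (11.3%) for 24 h against uninduced cells, 2104 (17.8%) for 48 h against 24 h and 94 (0.796%) for 72 h against 48 h, at a Benjamini-Hochberg adjusted p under 0.05. Without 24 h replicate 1 these counts were 2983 (25.1%), 3017 (25.4%) and 487 (4.09%). That array is not part of the last of these comparisons. Leaving it out changed the shared estimate of the spread and the number of genes tested, from 11806 to 11895. The third-day count was 53, 58 and 33 without 48 h replicates 1, 2 and 3, and 27 and 43 without 72 h replicates 1 and 2. The first-day count was 712 without uninduced replicate 1 and 823 without uninduced replicate 3, and the second-day count 1185 and 1330 without 48 h replicates 1 and 2. On the second day 1213 genes were higher and 891 lower, whereas quantile normalization gave 1002 and 1194.

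**Figure D1:**
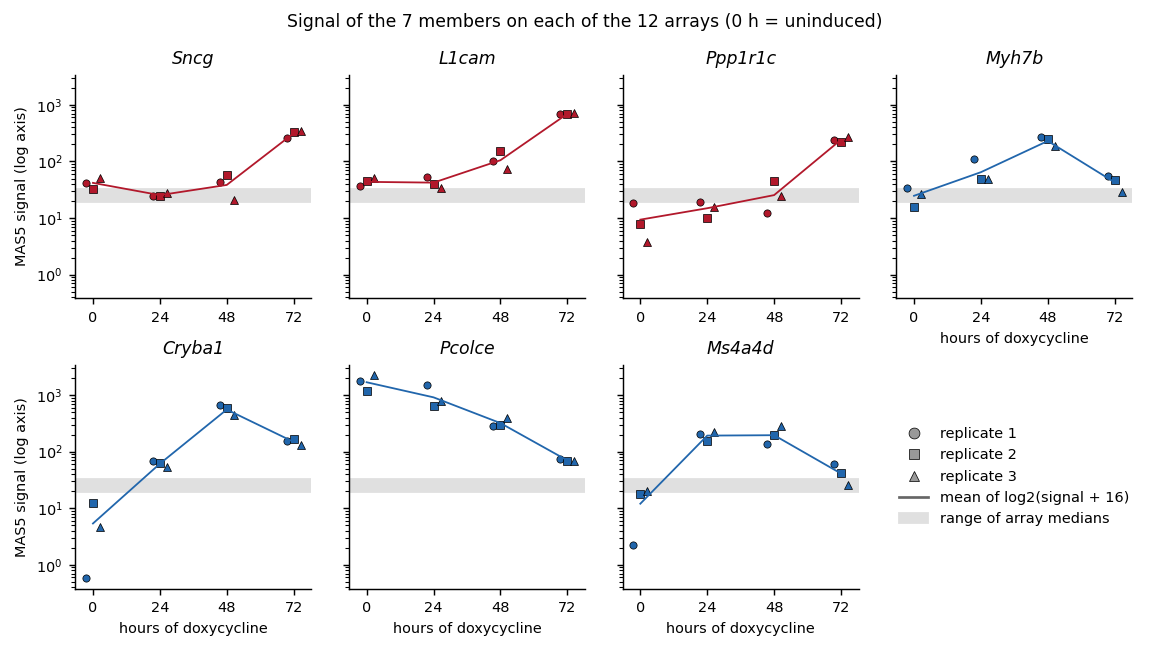
MAS5 signal (log axis) of each member's probe set against hours of doxycycline, with 0 h for uninduced cells, 1 symbol per array, a line through the group means of log2(signal + 16) and a grey band for the array medians (19.5 to 32.8). Sncg, L1cam and Ppp1r1c (red) were highest on the 3 arrays of 72 h, Pcolce was lowest there, and Myh7b, Cryba1 and Ms4a4d (blue, as is Pcolce) were highest at 24 or 48 h.

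The sequences before the start sites are shown because Neurog1 was the factor induced and Neurog-type factors are known to bind the E-box CANNTG, with CAGATG among its preferred forms. RefSeq promoters (build GRCm38.p6) were matched for 7 of 7 members, and the 250 bases before the start were searched on both strands, taking the most upstream start where there were several. CAGATG, read as CATCTG on the other strand and counted within CANNTG too, was present in 4 of 7 members and in 14.4% of 32851 windows of that length from 27025 genes. CANNTG of any kind was present in 5 of 7 members and in 66.2% of windows. A match is a description of letters, not a site shown to be bound. Capitals mark CAGATG or CATCTG and, in Cryba1, TATAAA (12.4% of windows). The windows of the late risers are chr14:34374670-34374919 (minus strand) for Sncg, chrX:73880835-73881084 (minus) for L1cam and chr2:79707530-79707779 (plus) for Ppp1r1c, which holds no CANNTG.
Sncg: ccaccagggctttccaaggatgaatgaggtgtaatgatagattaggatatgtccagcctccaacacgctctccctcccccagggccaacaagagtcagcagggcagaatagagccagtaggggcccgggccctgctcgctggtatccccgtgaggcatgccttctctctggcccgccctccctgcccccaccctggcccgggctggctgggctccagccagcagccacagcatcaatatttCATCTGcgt
L1cam: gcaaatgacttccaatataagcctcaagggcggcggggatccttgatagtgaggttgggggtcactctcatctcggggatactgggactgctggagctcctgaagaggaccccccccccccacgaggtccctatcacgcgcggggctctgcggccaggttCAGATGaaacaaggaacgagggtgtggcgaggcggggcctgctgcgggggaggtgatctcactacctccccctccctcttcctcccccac
Ppp1r1c: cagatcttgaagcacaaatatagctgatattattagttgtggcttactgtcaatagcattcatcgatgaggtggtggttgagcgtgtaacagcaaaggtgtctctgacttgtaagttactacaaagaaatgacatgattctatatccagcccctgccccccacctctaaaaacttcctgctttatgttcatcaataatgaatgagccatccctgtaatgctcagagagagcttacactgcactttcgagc

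In Sncg the E-box began 9 bases before the start, and in L1cam 90 bases before it. Of the 4 members that were lower at 72 than at 48 h, Cryba1 and Pcolce held the same letters, beginning 35 and 15 bases before their starts, and Cryba1 held TATAAA 23 bases before its start. Myh7b held 1 E-box of another form (CACGTG), and Ms4a4d held none. The E-box letters therefore occurred in members of both directions. Shown next are the Cryba1 window, chr11:77725294-77725543 (minus), and the last 30 bases before the start of Pcolce, chr5:137611405-137611434 (minus).
Cryba1: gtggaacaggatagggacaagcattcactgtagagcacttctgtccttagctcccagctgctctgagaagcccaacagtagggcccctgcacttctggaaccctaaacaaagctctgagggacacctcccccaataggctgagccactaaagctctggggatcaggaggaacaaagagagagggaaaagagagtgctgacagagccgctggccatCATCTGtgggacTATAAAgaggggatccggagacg
Pcolce: cacccggggctgcttCATCTGgtcctgatt

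Sncg was near the array medians until 48 h and several-fold brighter at 72 h. Its signals were 42.2, 32.9 and 52 in uninduced cells, 24.4, 24.2 and 27.7 at 24 h, 43.9, 57.8 and 20.6 at 48 h, and 265, 338 and 347 at 72 h (replicates 1, 2 and 3). All 3 arrays of 72 h lay above all 9 others, and at 48 h 1 array was below its array median. The 72 h minus 48 h difference was 2.60 ± 0.26, and the difference over the whole course was 2.51 ± 0.26, so the net change lay on the third day. At 24 h the 3 arrays lay below the 3 uninduced arrays, as did 9.41% of all genes tested, but the difference of -0.48 ± 0.26 did not pass (limma, adjusted p = 0.267).

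In the list of Sncg, of synuclein relatives and the axonal cytoskeleton, 4 of 17 tested genes rose between 48 and 72 h and 0 fell (limma), against 0.644% of all genes called higher and 0.152% called lower. The median difference of the list was 0.71, against -0.029 over all genes. More of the list was called a day earlier. For 48 h against 24 h 12 of 17 rose and 0 fell (limma), against 10.3% and 7.55% of all genes. The median difference was then 2, while that of Sncg itself was 0.40 ± 0.26. This list and those below were chosen with earlier results of these data known, so their counts are descriptions and not independent support. Nefm and Nefl, which encode neurofilament subunits, rose by 2.73 ± 0.43 (adjusted p = 0.00918) and 2.52 ± 0.29 (adjusted p = 0.00179), and Mapt, which encodes tau, by 2.57 ± 0.29 (adjusted p = 0.00179). The other called gene, named after its value was seen, was Stmn4 of the stathmin family (2.40 ± 0.36). On the second day Nefm, Nefl, Mapt and Stmn4 had stood at 3.47, 3.51, 0.17 and 2.25. The third-day count was 9 of 17, all higher, without 24 h replicate 1 (2.41% of all genes higher and 1.68% lower), and without 72 h replicate 1 it was 2. The relative Sncb, beta-synuclein, stood at 0.05 ± 0.31 on the third day (adjusted p = 1) and at signals of 54.2 to 103 at 72 h.

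Sncg is known from sensory neurons, so their markers are given beside it. Summed over 8 sensory neuron markers, the signal was 1949 to 3165 at 48 h and 5219.6 to 6334 at 72 h, with 7 of 8 above the median on all 72 h arrays. Of 7 tested, 0 were called for 72 h against 48 h (limma), although 7 had an unadjusted p under 0.05, as did 8.6% of all genes. Without 24 h replicate 1, 5 were called, all higher, against 2.41% of all genes higher and 1.68% lower. For 48 h against 24 h, 5 of 7 rose and 0 fell (limma), against 10.3% and 7.55% of all genes, with a median difference of 2.22. The part of sensory neurons in the course of Sncg was not tested. In bulk RNA, more cells of a type and more transcript per cell cannot be told apart.

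L1cam had moved modestly by 48 h and was highest at 72 h. The brighter probe set gave signals of 36.4, 44.4 and 51 in uninduced cells and 53.6, 40.3 and 34.5 at 24 h, which overlapped. At 48 h they were 101, 151 and 75.1, and at 72 h 696, 677 and 709. Thus the 48 h arrays lay above all earlier ones (48 h did not overlap 24 h for 37.4% of all genes, 19.7% higher and 17.6% lower), and the 72 h arrays, which differed little among themselves (log2 SD 0.03), lay above every other array. The difference was 1.06 ± 0.25 between 24 and 48 h and 2.55 ± 0.25 between 48 and 72 h, which is 71.3% of the course of 3.57 ± 0.25. The first day gave -0.03 ± 0.25 (limma, adjusted p = 0.946), whose sign turned with the mean of both probe sets (0.05) and without uninduced replicate 3 (0.05) or 24 h replicate 3 (0.07).

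The dimmer L1cam probe set was below the array median on all 9 arrays up to 48 h (0.934 to 23.4) and above it on all 3 of 72 h, at 105, 64 and 103. Its 72 h minus 48 h difference was 1.69. Both probe sets thus moved the same way on the third day, on the same arrays.

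Other members of the L1 family, the contactins and their partners formed the list of L1cam. For 48 h against 24 h 10 of 13 tested genes rose and 0 fell (limma), against 10.3% and 7.55% of all genes (14% and 11.3% without 24 h replicate 1). On the third day 1 rose and 0 fell, against 0.644% and 0.152% of all genes, with a median difference of 0.68. Nrcam, Nfasc and Chl1, the nearest relatives of L1cam, were at 0.73 ± 0.36 (adjusted p = 0.677), 0.64 ± 0.24 (adjusted p = 0.368) and -0.03 ± 0.29 (adjusted p = 1) on the third day. On the second day these 3 rose, by 2.5 (adjusted p = 0.000632), 1.12 (adjusted p = 0.00726) and 1.20 (adjusted p = 0.0133). The called gene was Ank2, which encodes an ankyrin that links such receptors to the membrane skeleton (1.28 ± 0.22, adjusted p = 0.0161). Its call was lost on leaving out any array of 48 h or 72 h replicate 1 or 2. Without 24 h replicate 1 the third-day count was 4 of 13, all higher, against 2.41% of all genes higher and 1.68% lower.

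**Figure D2:**
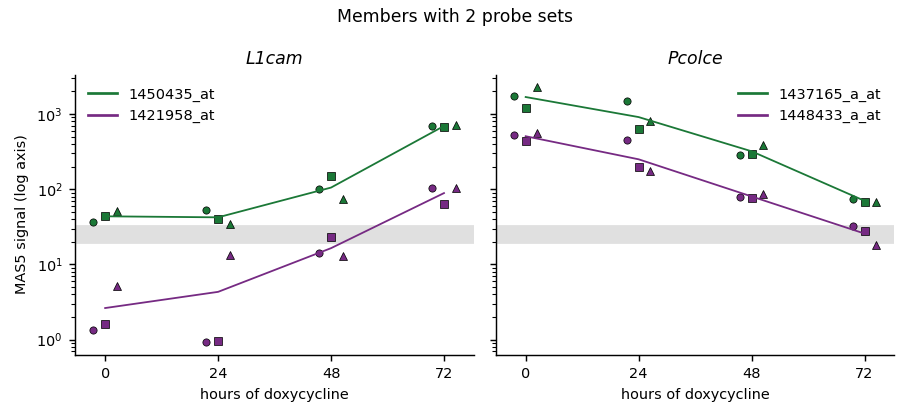
MAS5 signal (log axis) against hours of doxycycline for both probe sets of L1cam and of Pcolce, 1 symbol per array (circle, square and triangle for replicates 1, 2 and 3), lines through group means, grey band for the array medians. In each gene both probe sets are lower or higher at 72 than at 48 h together, and the dimmer L1cam probe set lies above the band of array medians at 72 h only.

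Ppp1r1c was dim on all 9 arrays up to 48 h. Signals were 18.7, 7.72 and 3.85 in uninduced cells, 19.5, 10.1 and 15.9 at 24 h, and 12.5, 46 and 24.3 at 48 h, against 235, 224 and 269.5 at 72 h. Of the 9 earlier arrays 1 exceeded its array median, and the 3 groups before 72 h overlapped. The gene therefore passed the brightness filter through the 72 h arrays alone. Its difference was 0.29 ± 0.30 on the first day (limma, adjusted p = 0.569), 0.42 ± 0.30 on the second and 2.64 ± 0.30 on the third, 78.8% of the whole course of 3.35 ± 0.30.

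Of 24 tested genes for catalytic subunits and other regulators of protein phosphatase 1, 0 were called for 72 h against 48 h (limma), against 0.796% of all genes. An unadjusted p under 0.05 was found for 2, against 8.6% of all genes, so both counts are near those shares. The median difference was 0.05. Ppp1r2, an inhibitor, was called higher and Ppp1r14a, an inhibitor of myosin phosphatase, lower when 24 h replicate 1 was left out. The catalytic subunit genes Ppp1ca, Ppp1cb and Ppp1cc were at -0.05 ± 0.22, -0.08 ± 0.41 and 0.04 ± 0.13. The relative Ppp1r1a was at 0.11 ± 0.40 (adjusted p = 1) and fell on the first day (-1.45 ± 0.40, adjusted p = 0.0356). Ppp1r1b, which encodes DARPP-32, exceeded the array median on 1 of 12 arrays and was not tested.

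Myh7b was highest at 48 h. Its signals were 33.8, 15.9 and 26.6 in uninduced cells, 111, 48.1 and 48.5 at 24 h, 270.1, 245 and 184 at 48 h, and 55.4, 48 and 28.4 at 72 h. The 48 h arrays lay above all 9 others, and the 72 h arrays overlapped both the 24 h and the uninduced arrays. Over all genes tested, 19.7% lay higher at 48 than at 24 h without overlap. From 48 to 72 h the difference was -2.07 ± 0.31, which is 79.7% of the log2 gain of 2.59 reached at 48 h. On the first day Myh7b stood at 0.98 ± 0.31 and missed the threshold (limma, adjusted p = 0.0601, 0.0214 to 0.2 over the alternatives). With the replicate number as a block it passed (adjusted p = 0.0214), as it did without 24 h replicate 3 (1.14 ± 0.34, adjusted p = 0.0484). Without 24 h replicate 1, whose signal was the highest of its group, the difference was 0.66 ± 0.27 (adjusted p = 0.0903).

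RefSeq places the microRNA gene Mir499 within Myh7b, and its mature form mmu-miR-499-5p is known from striated muscle. It is shown because it shares the locus, with the seed (bases 2 to 8) in capitals, and its level was not analysed here.
mmu-miR-499-5p: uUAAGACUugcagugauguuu

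Of 18 tested myosin and sarcomere genes 0 rose and 1 fell on the third day (limma), against 0.644% and 0.152% of all genes. Their median was -0.06. The gene that fell was Tnnc1, which encodes the calcium sensor troponin C of slow and cardiac muscle (-1.23 ± 0.24, adjusted p = 0.0335), after a rise of 1.79 on the second day (adjusted p = 0.000378). That call was lost on leaving out 24 h replicate 2 or any array of 48 or 72 h. Without 24 h replicate 1, 2 rose (Acta2 and Actc1) and 1 fell (Tnnc1), against 2.41% and 1.68% of all genes. With all arrays, Acta2 stood at 2.80 ± 0.76 (adjusted p = 0.134) and Actc1 at 1.20 ± 0.32 (adjusted p = 0.12) on the third day. Cardiac Myh6 was at -0.69 ± 0.24 (adjusted p = 0.279) and non-muscle Myh10 at 0.53 ± 0.33 (adjusted p = 0.837). Myh7 was not tested, with signals of 4.61 to 13.3 at 72 h. Summed over 12 striated muscle markers, the signal was 340.1 to 483 at 48 h and 246 to 348 at 72 h. Of the 12, 4 exceeded the array median on all 3 arrays in uninduced cells, 3 did at 24 h, and 2 at 48 and at 72 h. Myod1, Myog and Myf5, the defining factors of skeletal muscle, were below the array median on every array.

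Cryba1 went through the widest range of the members that peaked before 72 h. In uninduced cells its signals were 0.577, 12.6 and 4.62, all below the array median. They were 67.1, 62.4 and 54.6 at 24 h, 656, 592 and 438 at 48 h, and 152, 166 and 130.3 at 72 h. No 2 of the 4 groups overlapped. Over all genes tested, 26.8% did not overlap between uninduced cells and 24 h, 37.4% between 24 and 48 h, and 24.1% between 48 and 72 h. Cryba1 rose on the first day by 1.85 ± 0.25 (limma, adjusted p = 0.00052), in 3 of 3 arrays, and also without 24 h replicate 1 (1.80 ± 0.25, adjusted p = 0.000272). The difference was then 2.88 ± 0.25 on the second day and -1.79 ± 0.25 on the third, so that 37.8% of the log2 gain of 4.74 at 48 h was given back and the 72 h level was 2.94 ± 0.25 above uninduced cells.

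The relatives Cryba2, Cryba4 and Crybb1 were too dim to be tested, with highest signals at 48 h of 46.1, 8.38 and 25.4. Of 7 tested crystallin and lens genes 0 were called on the third day (limma), against 0.796% of all genes. Without 24 h replicate 1 the count was 0 too, against 4.09%. An unadjusted p under 0.05 was found for 2, against 8.6% of all genes, and the median was 0.47. On the second day 3 of the 7 rose, against 10.3% of all genes. These were the transcription factor genes Maf (2.93), Pax6 (1.88) and Prox1 (1.81), each used in other tissues as well. Of 9 lens markers 8 were below the array median on all 48 h arrays, including Cryaa, Mip, Lim2 and Foxe3, and their summed signal was 74.5 to 118 at 48 h and 57.8 to 148 at 72 h.

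Pcolce was the only one of the 7 members that was bright in uninduced cells, and its mean was lower at each later time. The brighter probe set gave 1752, 1199 and 2271 in uninduced cells, 1482, 637 and 799 at 24 h, 282, 295 and 392 at 48 h, and 74.5, 68.6 and 67.4 at 72 h. At 24 h replicate 1, the array that stood apart, overlapped the uninduced arrays, and replicates 2 and 3 lay below them. The first-day difference of -0.87 ± 0.32 missed the threshold (limma, adjusted p = 0.0991, 0.000934 to 0.308 over the alternatives). Without 24 h replicate 1 it was -1.22 ± 0.23 and passed (adjusted p = 0.00241). The second and the third day gave -1.47 ± 0.32 and -1.96 ± 0.32, the latter 45.6% of a whole course of -4.30 ± 0.32.

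The other Pcolce probe set followed the same order, with 531, 442 and 554 in uninduced cells, 451, 195 and 175 at 24 h, 78.9, 75.9 and 85.9 at 48 h, and 32.4, 28 and 18.1 at 72 h, where none exceeded the array median. Its 72 h minus 48 h difference was -1.20. With the mean of both probe sets the third-day difference was -1.58 ± 0.29.

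Among genes of procollagen processing and the fibrillar matrix, 0 of 19 tested were called on the third day (limma), against 0.796% of all genes. An unadjusted p under 0.05 was found for 2, against 8.6% of all genes, and the median was -0.26. Fn1, fibronectin, was called lower without 24 h replicate 1, and without 72 h replicate 3 1 gene was called higher. The relative Pcolce2 fell on the first day (-1.54 ± 0.29, adjusted p = 0.00514) and the second (-0.91, adjusted p = 0.0493) and stood at -0.04 ± 0.29 on the third (adjusted p = 1). Bmp1, the protease that Pcolce enhances, rose on the second day (1.40, adjusted p = 0.0367) and stood at -0.15 ± 0.42 on the third (adjusted p = 1). Col1a1, a substrate, exceeded the array median on 1 of 3 uninduced arrays and was not tested. The summed signal of 10 fibroblast and feeder cell markers was 145 to 188 in uninduced cells and 190.5 to 418 at 72 h. On the uninduced arrays, where Pcolce was brightest, 7 of the 10 were above the median on none, Col3a1, Dcn and Postn among them. Of the others, 1 was above it on all 3.

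Ms4a4d had the widest first-day difference of the 7. Its signals were 2.26, 17.6 and 19.9 in uninduced cells, all below the array median, and 207, 154 and 222 at 24 h. At 48 h they were 137, 193 and 279, which overlapped those of 24 h, and at 72 h 60.3, 42.8 and 25.5. The 72 h arrays lay below all arrays of 24 and 48 h and above all uninduced arrays. Over all genes tested, 17.4% lay higher at 24 h than in uninduced cells without overlap, and 12.6% lower at 72 than at 48 h. For Ms4a4d the first day was tested. It rose by 2.89 ± 0.33 on the first day (limma, adjusted p = 0.000212), in 3 of 3 arrays, and by 2.84 ± 0.36 without 24 h replicate 1 (adjusted p = 0.000147). The second day gave 0.02 ± 0.33 and the third -1.89 ± 0.33, which is 64.8% of the log2 gain of 2.92 present at 48 h.

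Of the rest of the MS4A list only Ms4a10 and Tmem176b were bright enough to be tested. On the third day 0 of 2 were called (limma), against 0.796% of all genes. An unadjusted p under 0.05 was found for 0, against 8.6% of all genes. Ms4a10 rose on the first day (2.34 ± 0.45, adjusted p = 0.00507) and fell on the second (-3.43, adjusted p = 0.000293), a day before the lower signals of Ms4a4d. Ms4a4b, Ms4a4c and Ms4a6d were not tested, with highest signals at 48 h of 7.31, 12.7 and 12.2. Among 10 blood cell markers, Ptprc, which encodes the pan-leukocyte antigen, was below the array median in every group, as were Tyrobp and Lyz2. At 24 h these 3 were the only markers above the median on no array, while Cd52, Cd79a and Cd3e exceeded it on some array of that group only. Markers above it on no array numbered 6 of 10 in uninduced cells, 3 at 24 h, and 8 at 48 and at 72 h. Of the 10, 2 exceeded the median on all 3 arrays in uninduced cells and at 24 h, and 1 did at 48 and at 72 h. The summed signal was 737 to 1669 in uninduced cells, 516 to 1239 at 24 h, 384 to 518 at 48 h and 151 to 256 at 72 h.

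**Figure D3:**
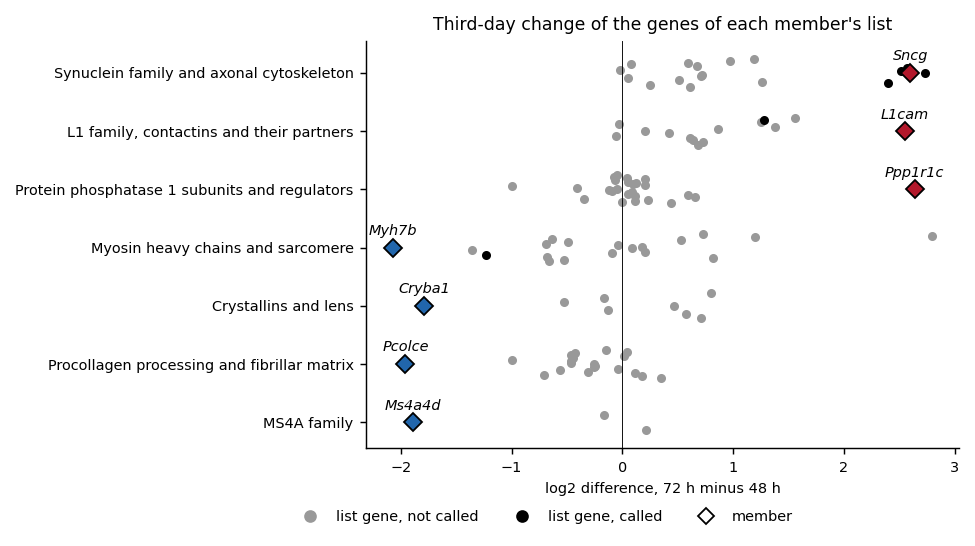
Log2 difference between 72 and 48 h (horizontal axis) of every tested gene in the list of each member (circles, black where called by limma), with the member itself as a diamond, placed there because this difference chose it. Black circles are seen in 3 lists, with 4 genes in that of Sncg and 1 each in those of L1cam and Myh7b.

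The first day shares no array with the 72 h minus 48 h difference. On that day 2 of 7 members rose and 0 fell, against 8.12% of all genes higher and 3.18% lower. On leaving out 24 h replicate 1, 2 rose and 1 fell (Pcolce), against 16.2% and 8.89%. The members with no first-day call included the 3 that were highest at 72 h, whose first-day differences lay between -0.48 and 0.29. One of these, Ppp1r1c, was below the array median on all 6 arrays compared.

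**Figure D4:**
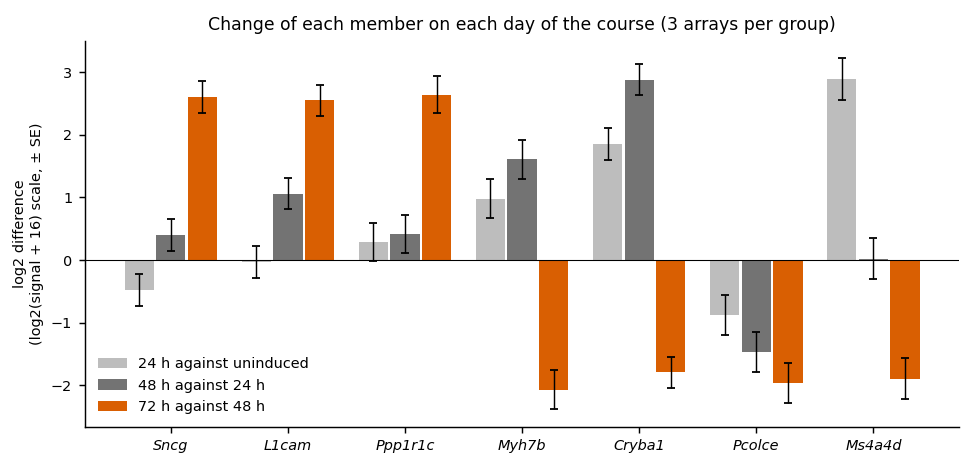
Log2 difference ± SE of each member on the first, the second and the third day (bars from 0, 3 arrays per group). Only the first day was tested, where Cryba1 (1.85) and Ms4a4d (2.89) rose. On the third day the bars of Sncg, L1cam and Ppp1r1c point up (2.55 to 2.64) and those of the other 4 point down (-2.07 to -1.79).

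**Figure D5:**
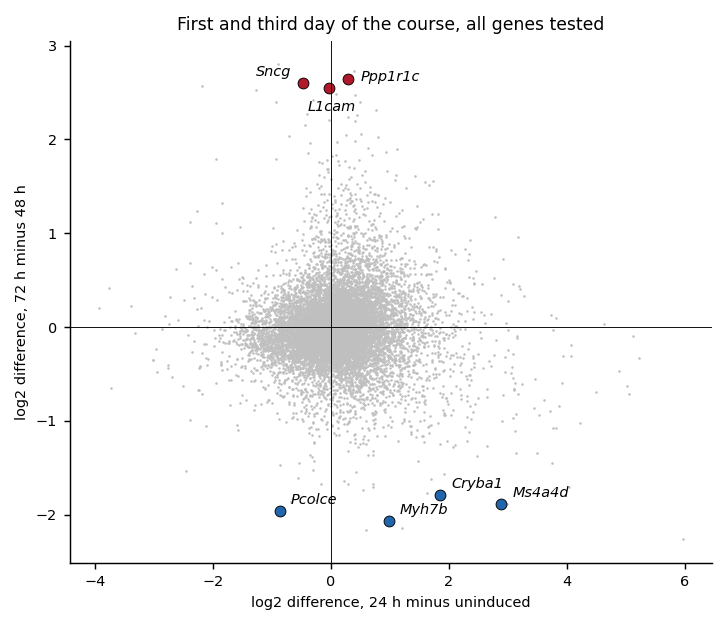
Log2 difference of 24 h minus uninduced (horizontal) against 72 h minus 48 h (vertical), which share no array, for the 11806 genes tested (grey) and the members (red where higher, blue where lower on the third day). The 3 red points lie near 0 on the first day, and Cryba1 and Ms4a4d lie to the right.

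Among themselves the members fell into courses that can be described by their Pearson correlation over the 12 arrays, which share 4 group means. Sncg, L1cam and Ppp1r1c correlated with each other at r = 0.933 to 0.964, which follows in part from their choice by the same difference. Over deviations from the group means, the same pairs were at r = 0.19 to 0.68. Pcolce ran against them (r = -0.924 to -0.814), which follows in part from the choice too. Within groups, these pairs were at r = -0.06 to 0.15. Myh7b, Cryba1 and Ms4a4d correlated at r = 0.66 to 0.834, and at r = -0.06 to 0.13 within groups.

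The genes most like each member over the 12 arrays were found in the same way. Their r values are the highest among the tested genes, with members and unnamed transcripts left out, and rest largely on 4 group means. For Sncg they were Isl2, a LIM homeodomain factor of motor and sensory neurons (r = 0.958), Tnik (r = 0.955) and Nwd2 (r = 0.939). For L1cam they were Plppr1 (r = 0.985), Akap6 (r = 0.98) and Fgf13 (r = 0.974). Ppp1r1c was most like Them4 (r = 0.973), Isl2 (r = 0.969) and the protocadherin gene Pcdhb17 (r = 0.965). Over deviations from the group means, the pairs of these 3 members were at r = 0.23 (Sncg with Nwd2) to 0.8 (L1cam with Akap6). Isl2 itself went from signals of 30.2 to 45.3 at 48 h to 164 to 171 at 72 h.

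Of the members with an earlier peak, Myh7b was nearest to Ankrd33b (r = 0.95), Prok2 (r = 0.932) and Lrrn4 (r = 0.93). Cryba1 was nearest to Fbxo32, which encodes an F-box protein of muscle wasting (r = 0.977), Pmp22 of peripheral myelin (r = 0.971) and Katnal2 (r = 0.967). For Ms4a4d they were Txnip, which encodes a thioredoxin-binding protein (r = 0.958), Ecscr (r = 0.944) and Tbc1d8 (r = 0.943). Pcolce was most like Tgif1, a homeodomain repressor (r = 0.982), Slc29a1 (r = 0.975) and Fbxo6 (r = 0.972). Within groups, the pairs of this paragraph were at r = 0.26 (Cryba1 with Pmp22) to 0.85 (Ms4a4d with Tbc1d8).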

How the data were processed

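The 12 arrays were deposited as probe set intensity on a linear scale. The submitters' processing notes name MAS5 as the authors' tool, and the sources used here do not give its version or settings. The 2% trimmed mean was 150 on each array. Of 45101 probe sets, 34945 had 1 symbol in the platform annotation, 932 several and 9160 none, beside 64 controls. The 9 member probe sets matched RefSeq symbols by Entrez identifier.

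Signals were transformed as log2(signal + 16) with the authors' scaling kept. Per gene the brightest probe set was used, and tested where it exceeded the array median on 3 arrays of any group. A 4-group model was fitted with limma 3.58.1 in R 4.3.3 (eBayes with trend), two-sided, with Benjamini-Hochberg adjustment over all genes tested. The fit was tested on simulated data. The number of arrays limits the precision.

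Members and lists were chosen with earlier results of these data known. Named genes are the members, fixed relatives, up to 3 called rises and falls per list, the genes next in rank, the 3 most alike by correlation, and Neurog1, Pou5f1 and Tubb3 as context. Arrays of the same replicate number correlated in their deviations from group means (r = 0.16 for 24 h and uninduced cells, 0.13 to 0.43 for 48 and 24 h, 0.23 to 0.58 for 72 and 48 h). Arrays of unlike numbers were not set beside them, so these values do not show a pairing. A pairing by number would rest on the data, not on the labels, and the main fit used no replicate block. Whether the replicates were separate cultures is not stated further, so p-values measure the spread between these arrays.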

Additional observations from a re-analysis of the deposited data

How the results depend on the processing

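The 72 h minus 48 h differences of all 7 members kept their sign under all 22 alternatives. They depended on the pseudocount. With 1 in place of 16 the third-day difference was 3.03 for Sncg, 3.27 for Ppp1r1c, -2.42 for Myh7b and -2.17 for Pcolce. With 64 it was 1.87 for Sncg, 2.15 for L1cam, 1.76 for Ppp1r1c, -1.46 for Myh7b, -1.54 for Cryba1, -1.52 for Pcolce and -1.30 for Ms4a4d. The mean of all probe sets gave 2.12 for L1cam and -1.58 for Pcolce. The first-day calls of Cryba1 and Ms4a4d were kept under all 22 alternatives. Array weights brought in first-day calls of Myh7b (0.71) and Pcolce (-1.18). The replicate block brought in that of Myh7b (0.98) and moved the sarcomere count to 2, and it changed no other call of a member or count of a list by more than 1.5 times. On leaving out 1 array at a time, first-day differences ranged from 0.66 to 1.15 for Myh7b and from -1.22 to -0.62 for Pcolce. For L1cam they ranged from -0.16 to 0.07, and the mean of its probe sets gave 0.05.

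Counts of genes called on the third day were 19 with a pseudocount of 1, 239 with 64, 51 with the filter at percentile 75, 1580 with array weights, 439 in a fit of the 6 arrays compared and 159 with the mean of probe sets. Array weights gave 3001 on the first day and 4096 on the second, and the fit of 6 arrays 365 and 1030. Leaving out 1 array gave 712 to 2983, 1185 to 3017 and 27 to 487 for the first, the second and the third day. The third-day count of the Sncg list was 2 with a pseudocount of 1, 10 with array weights and 8 in the fit of 6 arrays, and 2 to 9 on leaving out 1 array. That of the L1 list was 0 with a pseudocount of 1, 3 with 64, 7 with array weights, 4 in the fit of 6 arrays and 2 with the mean of probe sets (0 to 4 on leaving out 1 array). The phosphatase list had 4 with array weights and 3 in the fit of 6 arrays (0 to 2). The sarcomere list had 0 with a pseudocount of 1 or no filter, 2 with 64, 6 with array weights and 2 in the fit of 6 arrays (0 to 3). Lens genes had 1 and procollagen genes 3 with array weights, the latter 0 to 1 on leaving out 1 array. The cause of these changes was not tested. Signals near or below the array medians limit what can be said of the dim groups.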

Other observations

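Genes called on the third day were set beside the calls of the first day, in comparisons that share no array. The members are among the genes called on the third day because that difference chose them, so the tally is a description. Over all genes tested, 88.7% were not called on the first day, 8.12% were higher and 3.18% lower. Of the 76 genes higher at 72 than at 48 h, 65 (85.5%) were not called on the first day, a share near that of all genes. A further 7 (9.21%) had been higher, which is 0.73% of the 959 genes higher on the first day. The remaining 4 (5.26%, 1.06% of the 376 lower on the first day) had been lower. These 4, named after their values were seen, were Mapt, Nefl, Pdgfc, a growth factor gene, and Trim2. Mapt went from signals of 165 to 235 in uninduced cells to 26.5 to 30.9 at 24 h and 203 to 353 at 72 h.

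Of the 18 genes lower at 72 than at 48 h, 4 (22.2%, 0.417% of the 959) had been higher on the first day. They were the members Cryba1 and Ms4a4d, chosen for their third-day fall, with Ecscr and the Wnt ligand gene Wnt8a. Tgif1 was lower on both days, and 13 (72.2%) were not called on the first, the members Myh7b and Pcolce among them.

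The tally depended on 24 h replicate 1. Without it, 74.9% of all genes were not called on the first day, 16.2% were higher and 8.89% lower. Of 287 genes higher on the third day, 189 (65.9%) were then not called on the first, 92 (32.1%) were higher and 6 (2.09%) lower. Of 200 genes lower on the third day, 113 (56.5%) were not called on the first, 65 (32.5%) were higher and 22 (11%) lower. The differences between these shares and those of all genes were not tested.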
